A study of Mus musculus with 20 samples.

Results

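Band 3, spectrin, ankyrin and the proteins that tie them together form the membrane skeleton of the red cell, and 7 of its genes are described here across mouse erythroblasts of 10 groups: Slc4a1, Epb42, Ank1, Sptb, Add2, Dmtn and Tmod1. They were chosen by name, as the probe sets whose annotation gave exactly 1 symbol and that symbol was one of the 7. Each gene had 1 such probe set, so 7 of the 19505 named genes on the array were members. RNA was measured on 20 Clariom S microarrays, 2 arrays per group. Of these, 8 arrays held erythroblasts grown from marrow progenitors of female wild-type C57BL/6 mice in medium with erythropoietin, either without further cytokine (D1-Control, D2-Control) or with the cytokine interleukin 6 (IL-6), added when the culture began at 100 ng/mL (D1-IL6, D2-IL6). The labels do not define D1 and D2 further, and the series names 2 wild-type mice as the source, so it is not known whether the 2 arrays of a group were separate cultures of separate mice. The p-values therefore measure the spread between these samples, which may be technical.

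The other 12 arrays held erythroblasts of C57BL/6 mice aged 1 year, 2 mice per genotype: DWT, labelled double wild type, and DKO, in which mDia1 and miR-146a were both knocked out. mDia1, the product of Diaph1, is a formin that builds actin filaments, and miR-146a is a microRNA known for restraining inflammatory signalling. Each genotype was sampled as proerythroblasts (stage I), basophilic and polychromatic erythroblasts together (stage II+III) and orthochromatic erythroblasts (stage IV). The labels do not say how the stages were isolated. DWT replicate 1 was a male and DWT replicate 2 a female at every stage. The DKO mice were all female, and the labels do not tie DKO arrays of different stages to the same mouse.

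The membrane skeleton is a network of spectrin tetramers joined at short actin filaments, and it gives the circulating red cell its shape and its ability to deform. Ankyrin links spectrin to band 3 in the lipid bilayer, with protein 4.2 at that contact, and a separate junctional complex with adducin, dematin and tropomodulin caps and bundles the actin and binds it to the membrane. Erythroblasts build this network as they mature, and inherited defects of band 3, ankyrin, spectrin or protein 4.2 are known causes of hereditary spherocytosis.

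The promoters of some of these genes are shown because all 7 followed the same order of stages in vivo; in the cultures Add2 went against the others. RefSeq windows of the 250 bases before the transcript start (GRCm38.p6) were available for 4 of the 7 members: Sptb, Epb42, Add2 and Tmod1. The windows of Sptb at chr12:76710548-76710797 (minus strand), Epb42 at chr2:121036878-121037127 (minus strand) and Add2 at chr6:86028431-86028680 (plus strand) are given 5′ to 3′ on the strand of the gene. Capitals mark matches, on either strand, to a GATA motif (GATA with A or T before it and A or G after it) or to a CACCC-type motif (CCNCNCCC), the letter patterns bound by GATA and KLF factors of the erythroid lineage.
Sptb: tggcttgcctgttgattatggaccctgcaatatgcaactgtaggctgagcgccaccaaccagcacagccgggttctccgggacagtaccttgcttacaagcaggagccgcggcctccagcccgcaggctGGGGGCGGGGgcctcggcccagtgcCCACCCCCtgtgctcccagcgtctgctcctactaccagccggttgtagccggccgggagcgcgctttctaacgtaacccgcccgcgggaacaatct
Epb42: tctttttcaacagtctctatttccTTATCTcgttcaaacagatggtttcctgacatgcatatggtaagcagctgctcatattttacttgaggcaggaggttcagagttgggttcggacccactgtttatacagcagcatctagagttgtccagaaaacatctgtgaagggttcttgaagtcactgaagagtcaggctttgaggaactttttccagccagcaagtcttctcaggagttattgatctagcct
Add2: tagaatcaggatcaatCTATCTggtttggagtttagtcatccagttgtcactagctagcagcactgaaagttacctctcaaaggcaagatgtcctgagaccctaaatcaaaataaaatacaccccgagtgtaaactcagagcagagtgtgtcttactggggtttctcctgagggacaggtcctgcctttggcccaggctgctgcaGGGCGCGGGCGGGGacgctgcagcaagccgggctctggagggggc

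These windows differed in what they held. Sptb had 3 CACCC-type matches, 2 of them overlapping, and 0 GATA matches, and 65.2% of its bases were G or C. Epb42 had 1 GATA match, beginning 226 bases before the start, 0 CACCC-type matches and 4 E-box matches (CANNTG, the pattern of TAL1 and other helix-loop-helix factors), at 43.2% G or C. Add2 had 1 GATA match, beginning 234 bases before the start, and 2 overlapping CACCC-type matches, at 53.2% G or C. Sptb and Add2 each had 1 E-box match. The window of Tmod1, which overlaps the annotated span of Tmod1 itself and is not printed, had 4 CACCC-type, 0 GATA and 0 E-box matches. No motif was shared by all 4 windows. Among 32851 windows of the same length, 26.5% held a GATA match, 45.9% a CACCC-type match, 66.2% an E-box match and 8.19% both of the first pair, so each pattern is common and a match is only a description.

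A few facts about the arrays bear on the members. Diaph1, the gene of mDia1, checked the labels: it lay between 6.87 and 7.59 on the log2 scale in the 6 DKO arrays, near the array background (7.25 to 7.74, the 95th percentile of the background probe sets), and between 9.29 and 11.49 in the 6 DWT arrays. Whether its probes lie within the deleted part was not given. The 2 arrays of a group correlated at 0.970 or higher over the named probe sets in 9 groups and at 0.903 in DKO-I, where replicate 2 stood apart: its highest correlation with any array was 0.909, and the ribosomal gene Rps14 read 12.32 there against 16.02 to 17.28 in the other 19 arrays. Erythroid reference genes (15 of 18 listed had a named probe set, among them Alas2, Klf1 and Gata1) had a mean log2 signal of 13.82 to 14.63 in the cultures and 12.33 to 15.10 in DWT. In DKO that mean was 9.80 and 9.02 at stage I, 11.65 and 12.62 at stage II+III, and 14.80 and 14.89 at stage IV. Neutrophil markers (13 of 14 had a named probe set, among them S100a8) were high in vivo at stage I, with means of 15.97 and 16.22 in DWT and 16.85 and 15.23 in DKO, and all 13 were above background in all 4 of those arrays. At stage II+III the neutrophil mean was 11.02 and 12.81 in DWT against 15.23 and 15.20 in DKO, and at stage IV it was 7.71 and 9.77 against 12.24 and 11.70. In the cultures it was 5.88 to 8.28. The part of these other cells in the results below was not tested, and in such bulk samples fewer erythroid cells cannot be told apart from less RNA per erythroid cell.

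All 7 members had their lowest group mean in DKO-I, the next in DKO-II+III and the third in DWT-I. The highest group mean was DWT-IV for 6 members and D2-Control for Slc4a1. Between those ends, each gene spanned a log2 range of group means from 5.26 (Slc4a1) to 9.06 (Sptb), while the median standard deviation between the 2 arrays of a group was 0.09 (Slc4a1) to 0.28 (Add2). Probe sets differ in how they bind, so levels are compared here only within a gene, and between genes only as differences.

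**Figure D1:**
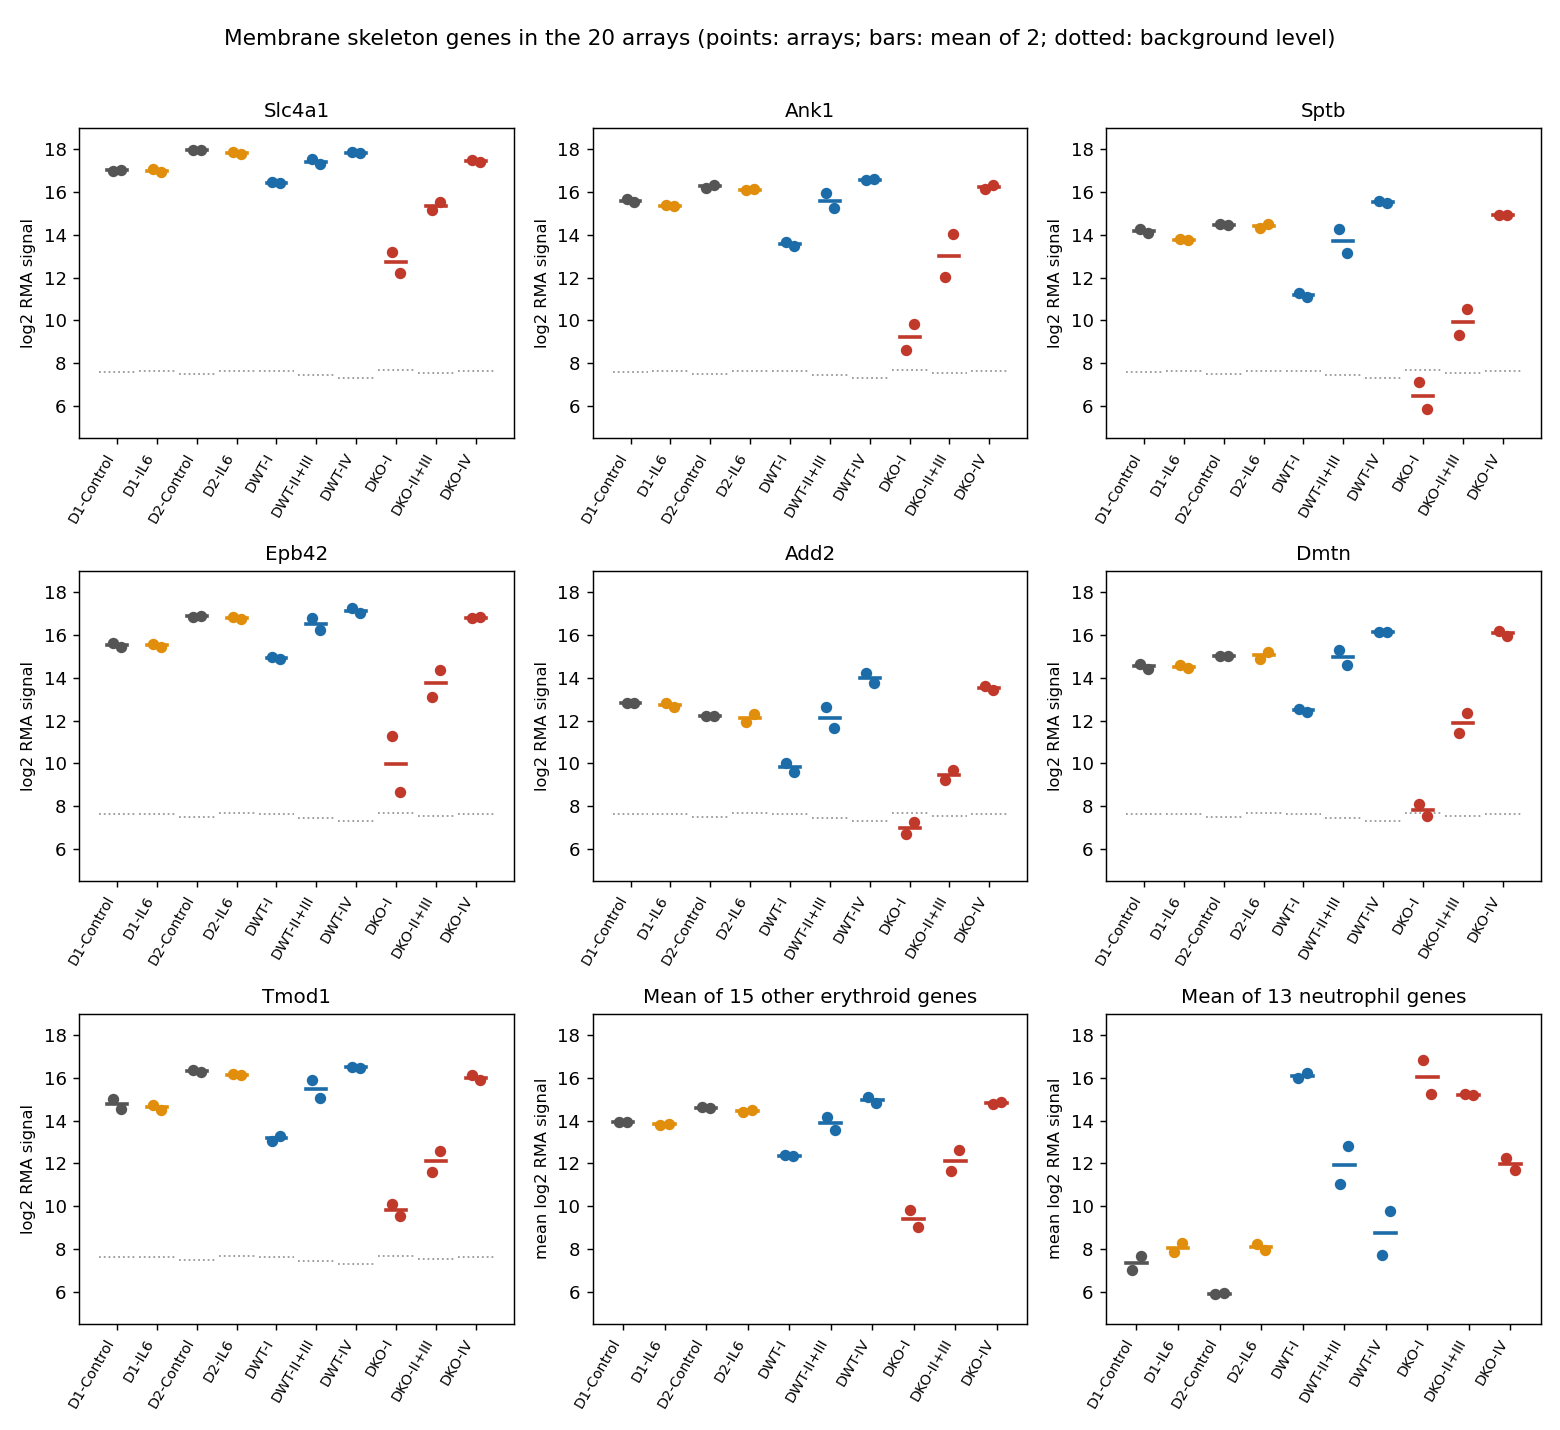
Log2 RMA signal of each of the 7 membrane skeleton genes, and in the last 2 panels the mean log2 signal of 15 other erythroid genes and of 13 neutrophil genes, in the 10 groups; points are arrays, bars the mean of the 2 arrays and dotted lines the background level. DKO-I is the lowest group for every one of the 7 genes, and DWT-IV is the highest for all but Slc4a1.

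Slc4a1 encodes band 3, the anion exchanger that carries bicarbonate and chloride and is the main membrane anchor of the skeleton. In DWT, replicate 1 and replicate 2 read 16.47 and 16.42 at stage I, 17.52 and 17.30 at stage II+III, and 17.86 and 17.82 at stage IV. In DKO the arrays read 13.20 and 12.23, then 15.17 and 15.52, then 17.51 and 17.38. From stage I to IV the band 3 transcript thus differed by 1.39 in DWT and by 4.73 in DKO on the log2 scale, and the DKO and DWT arrays did not overlap at any stage. In the order of all groups, the D1 cultures lay above DWT-I, DWT-II+III overlapped DKO-IV, and D2-IL6 overlapped DWT-IV.

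Epb42 encodes protein 4.2, which binds band 3 and ankyrin and stabilises their contact. It read 14.99 and 14.88 in DWT-I, 16.77 and 16.24 in DWT-II+III, and 17.25 and 17.03 in DWT-IV. DKO arrays read 11.29 and 8.68, then 13.10 and 14.38, then 16.80 and 16.82. The 2 DKO-I arrays were further apart for Epb42 than for any other member in any group, with the lower value in the array that stood apart. In the order of levels, DWT-II+III overlapped D2-IL6, which overlapped DKO-IV.

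Ank1 encodes ankyrin-1, the adaptor between β-spectrin and band 3. DWT arrays read 13.64 and 13.48, then 15.95 and 15.25, then 16.56 and 16.60. DKO arrays read 8.62 and 9.86, then 12.02 and 14.04, then 16.14 and 16.34. The wide pair in DKO-II+III overlapped DWT-I, so for Ank1 these neighbouring groups were not separated.

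Sptb encodes erythroid β-spectrin, which carries the ankyrin binding site of the spectrin tetramer. It read 11.31 and 11.10 in DWT-I, 14.27 and 13.16 in DWT-II+III, and 15.60 and 15.50 in DWT-IV. In DKO it read 7.12 and 5.86, then 9.30 and 10.52, then 14.91 and 14.91. Both DKO-I arrays lay under the background level, so the lowest Sptb values are only upper limits of the signal.

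Add2 encodes β-adducin, which caps actin filaments at the junction and recruits spectrin to them. DWT arrays read 10.03 and 9.62, then 12.62 and 11.66, then 14.22 and 13.76. DKO arrays read 6.69 and 7.26, both near background, then 9.24 and 9.69, then 13.60 and 13.44. As with Ank1, the DKO-II+III arrays overlapped DWT-I. Add2 was the only member whose D2 cultures ranked below its D1 cultures.

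Dmtn encodes dematin, an actin-bundling protein that also ties the junction to the membrane. It read 12.56 and 12.40 in DWT-I, 15.30 and 14.60 in DWT-II+III, and 16.13 and 16.16 in DWT-IV. DKO arrays read 8.10 and 7.56, the latter near background, then 11.42 and 12.36, then 16.20 and 15.97. Dmtn was the only member whose DKO-IV and DWT-IV arrays overlapped.

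Tmod1 encodes tropomodulin-1, which caps the pointed end of the short actin filaments and so helps to set their length. DWT arrays read 13.06 and 13.29, then 15.91 and 15.08, then 16.53 and 16.44. DKO arrays read 10.09 and 9.53, then 11.62 and 12.58, then 16.13 and 15.88. DKO-II+III and DWT-I did not overlap for Tmod1.

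Within DWT-II+III, replicate 1 (the male mouse) was higher than replicate 2 for all 7 members, by 0.23 (Slc4a1) to 1.11 (Sptb). The erythroid reference mean was higher in the same array (14.18 against 13.56) and the neutrophil mean lower (11.02 against 12.81). With 1 mouse of each sex, sex and mouse cannot be told apart, and their part in the gap was not tested.

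The genotype comparison sets DKO against DWT at each stage. These are bulk samples, whose erythroid and neutrophil marker levels are given above, and the part of cell content was not tested. At stage I all 7 members fell in DKO, by 2.85 to 4.95 on the log2 scale (limma, adjusted p under 0.05 over 19572 named probe sets), in a comparison in which 0.388% of all named probe sets passed downwards. The median over the members was -4.32, against 0.15 over all named probe sets. Band 3 and its partners fell by 3.73 ± 0.32 (SE; Slc4a1, 13.3-fold, limma adjusted p = 0.00177), 4.95 ± 0.70 (Epb42, 31.0-fold, adjusted p = 0.0131) and 4.32 ± 0.61 (Ank1, adjusted p = 0.0133). Sptb fell by 4.71 ± 0.57 (limma adjusted p = 0.00713). Because both DKO-I arrays lay near background, that change is a bound of -3.52 when measured from the background level. At the actin junction, Dmtn fell by 4.64 ± 0.43 (adjusted p = 0.00226) and Tmod1 by 3.36 ± 0.43 (adjusted p = 0.0096). Add2 fell by 2.85 ± 0.46 (limma adjusted p = 0.0256), with a bound of -2.14 from background.

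The stage I arrays of the 2 genotypes overlapped for 0 of 7 members, where 17.4% of all named probe sets had all DKO arrays below all DWT arrays. The stage I calls rested on both DWT-I arrays: without DWT-I replicate 1 or without DWT-I replicate 2, 0 of 7 members passed. Leaving out either DKO-I array, including the outlying replicate 2, left all 7 members lower in DKO. Over the alternatives, 0 to 6066 named probe sets passed at this stage, so counts of calls under them say little about the members. With a term for the male DWT mouse in the fit (the replicate block, which blocks no DKO array) 3 of 7 passed. With only the 4 arrays of the comparison 0 of 7 passed.

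At stage II+III, 5 of 7 members fell in DKO, where 0.399% of all named probe sets passed downwards. The median over the members was -2.76, against 0.01 over all named probe sets. The members that passed were Sptb (fell by 3.80 ± 0.57, limma adjusted p = 0.0161), Tmod1 (fell by 3.40 ± 0.43, adjusted p = 0.0107), Dmtn (fell by 3.06 ± 0.43, adjusted p = 0.0136), Add2 (fell by 2.68 ± 0.46, adjusted p = 0.0303) and Slc4a1 (fell by 2.06 ± 0.32, adjusted p = 0.0204). All 4 junction and spectrin genes were thus among them, at 6.40-fold (Add2) to 14.0-fold (Sptb) lower in DKO. Epb42 and Ank1 did not pass, at -2.76 ± 0.70 (limma adjusted p = 0.141) and -2.57 ± 0.61 (adjusted p = 0.118). Their DKO and DWT arrays did not overlap either, so all 7 members had every DKO array below every DWT array, as had 21.2% of all named probe sets. Without DWT-II+III replicate 1 and with the replicate block, 0 of 7 passed; without DWT-II+III replicate 2, 3 of 7 passed, without DKO-II+III replicate 1, 2 of 7 passed, and without DKO-II+III replicate 2, 4 of 7, Ank1 among them. With only the 4 arrays of the comparison 1 of 7 passed.

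At stage IV no member passed (0 of 7 by limma, where 0.0255% of all named probe sets passed downwards and 1588 had an unadjusted p under 0.05 in either direction). The differences were -0.39 (Slc4a1), -0.34 (Ank1), -0.64 (Sptb), -0.33 (Epb42), -0.47 (Add2), -0.06 (Dmtn) and -0.48 (Tmod1). All 7 were negative, and for 6 of 7 every DKO array lay below every DWT array, as it did for 23.4% of all named probe sets. The 95% intervals were wide: that of Slc4a1 ran from -1.11 to 0.33 and that of Sptb from -1.89 to 0.62, which leaves room for differences in either direction. The unadjusted p-values of the members at stage IV ran from 0.253 to 0.888 in limma.

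**Figure D2:**
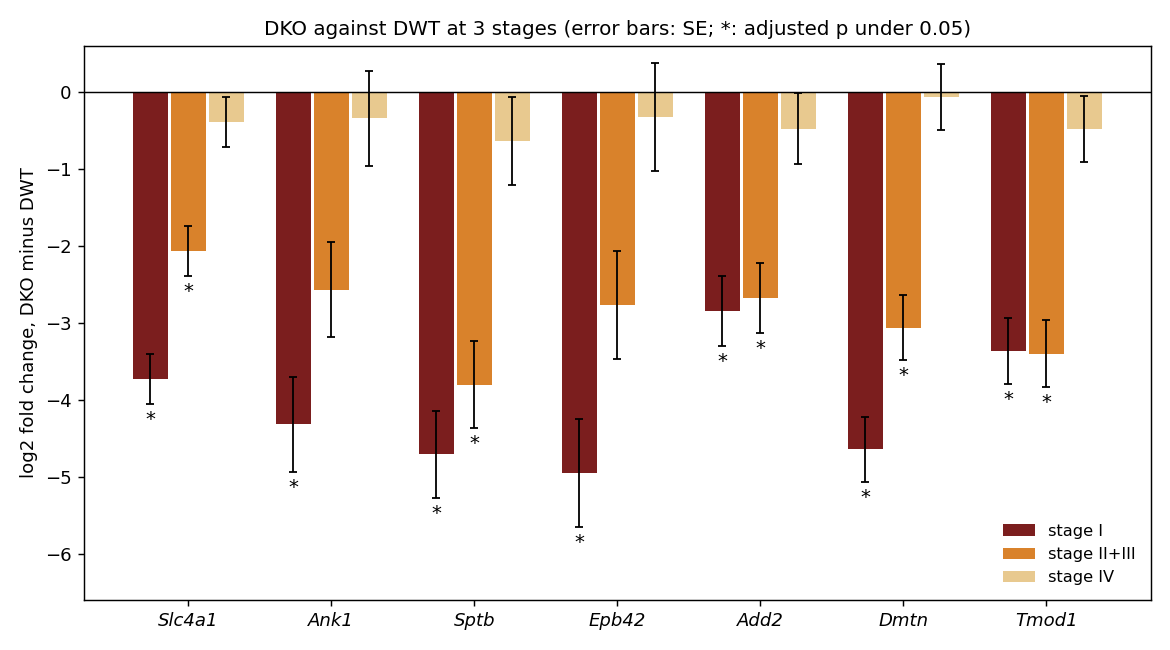
Log2 fold change of DKO against DWT (vertical axis) for the 7 genes at stage I, stage II+III and stage IV; error bars are the SE from limma and an asterisk marks an adjusted p under 0.05. The changes run from -4.95 to -2.85 at stage I, from -3.80 to -2.06 at stage II+III and from -0.64 to -0.06 at stage IV, where no bar has an asterisk.

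Whether the genotype difference itself changed with the stage was tested as an interaction, which shares arrays with the comparisons above. No member passed (0 of 7) from stage I to II+III or from II+III to IV, and 0.00% of all named probe sets passed either interaction, with 942 and 662 probe sets at an unadjusted p under 0.05 in limma. From stage II+III to IV the difference moved towards 0 by 1.67 (Slc4a1) to 3.17 (Sptb), with the lowest unadjusted p for Dmtn (3.0 ± 0.60, unadjusted p = 0.000476, limma adjusted p = 0.865). From stage I to II+III it moved by 1.67 ± 0.46 for Slc4a1 (unadjusted p = 0.00419, limma adjusted p = 0.799) and 2.19 ± 0.99 for Epb42, but by 0.17 ± 0.65 for Add2 and -0.04 ± 0.61 for Tmod1. The Add2 value is limited by background, since both of its DKO-I arrays lay near it. Over the alternative fits, 0 to 2700 named probe sets passed the interaction from stage I to II+III. A member call under a single alternative is therefore no result about the members. With DKO-I replicate 1 left out, the array that stood apart was the only DKO-I array.

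The stage comparisons follow the same arrays along maturation and share them with the genotype comparisons. In DWT, stage II+III was above stage I by 0.97 (Slc4a1), 1.57 (Epb42), 2.04 (Ank1), 2.51 (Sptb), 2.32 (Add2), 2.48 (Dmtn) and 2.32 (Tmod1), and the arrays did not overlap for any member, as for 24.8% of all named probe sets. No member passed (0 of 7 by limma, where 0.0255% of all named probe sets passed upwards and 1457 had an unadjusted p under 0.05 in either direction). Dmtn came nearest, at an adjusted p of 0.0507 in limma, followed by Tmod1 at 0.071 and Add2 at 0.0908. This count depended on the fit: 7 of 7 passed with only the 4 arrays of the comparison, and 4 of 7 with all 20 arrays in 1 fit. Over all the alternatives, 4 to 911 named probe sets passed in this step. From stage II+III to IV in DWT, Add2 rose by 1.85 ± 0.46 (limma adjusted p = 0.0448) as the 1 member of 7 to pass, where 1.59% of all named probe sets passed upwards. Sptb differed by 1.84 ± 0.57 (adjusted p = 0.0918) and the other members by 0.43 (Slc4a1) to 1.19 (Dmtn). The Add2 call was lost without any 1 of the 4 arrays of the comparison.

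In DKO, 4 of 7 members rose from stage I to II+III, where 0.240% of all named probe sets passed upwards: Dmtn by 4.06 ± 0.43 (limma adjusted p = 0.00578), Ank1 by 3.79 ± 0.61 (adjusted p = 0.0338), Sptb by 3.42 ± 0.57 (adjusted p = 0.0381, with a bound of 2.23 from background) and Slc4a1 by 2.63 ± 0.32 (adjusted p = 0.0105). The values of those that did not pass were 3.76 for Epb42, 2.49 for Add2 and 2.28 for Tmod1, at limma adjusted p-values of 0.0598 to 0.0651. The Add2 value started from 2 DKO-I arrays near background. The count of calls depended on which array was left out, while no member changed direction in any alternative. Over the alternatives, 0 to 4560 named probe sets passed in this step, so such counts say little about the members. Without DKO-I replicate 2 the Sptb call was lost (adjusted p = 0.0641 in limma), while Epb42 and Add2 passed. The replicate block left 2 of 7, and the fit of only the 4 arrays left 0 of 7. From stage II+III to IV in DKO, 7 of 7 rose, where 4.11% of all named probe sets passed upwards, by 5.0 ± 0.57 (Sptb, 32.1-fold, limma adjusted p = 0.00243), 4.19 (Dmtn), 4.06 (Add2), 3.91 (Tmod1), 3.20 (Ank1), 3.07 (Epb42) and 2.10 (Slc4a1). Without DKO-IV replicate 2, 4 of 7 passed, Slc4a1, Ank1 and Epb42 being those that did not. Ank1 and Epb42 also lost their calls without DKO-II+III replicate 1 and without DKO-IV replicate 1.

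Seen over the whole course, in DWT the members had covered 55.6% (Add2) to 71.2% (Epb42) of their log2 difference between stage I and stage IV by stage II+III. In DKO they had covered 36.9% (Tmod1) to 55.6% (Slc4a1). The share was smaller in DKO for 7 of 7 members, with the widest gap for Tmod1 (70.1% in DWT, 36.9% in DKO), and this contrast of shares was not tested. The whole difference from stage I to IV was 1.39 (Slc4a1) to 4.35 (Sptb) in DWT and 4.73 (Slc4a1) to 8.42 (Sptb) in DKO. Sptb and Add2 lay near background in both DKO-I arrays, so their DKO differences and shares depend on the background level. DKO-II+III means lay below the DWT-I means for 7 of 7 members, by 0.36 (Add2) to 1.29 (Sptb) on the log2 scale.

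The cultures asked what IL-6 did to wild-type erythroblasts and hold 2 collection points, D1 and D2. In control cultures 6 of 7 members changed between them, 5 upwards and 1 downwards, where 43.2% of all named probe sets passed (19.7% upwards and 23.5% downwards), so a call here is common. Tmod1 read 15.02 and 14.54 at D1 and 16.38 and 16.29 at D2, a rise of 1.56 ± 0.15 (2.94-fold, limma adjusted p = 1.25e-05). Epb42 read 15.62 and 15.44 at D1 and 16.86 and 16.90 at D2, a rise of 1.34 ± 0.09 (adjusted p = 1.08e-06). These were the 2 members with the widest rises, one at the actin junction and one beside band 3. Slc4a1 read 17.00 and 17.02, then 17.98 and 17.96, a rise of 0.96 ± 0.06 (limma adjusted p = 1.02e-06). Ank1 read 15.67 and 15.54, then 16.20 and 16.33, a rise of 0.66 ± 0.09 (adjusted p = 0.00015). Dmtn read 14.65 and 14.43, then 15.01 and 15.01, a rise of 0.47 ± 0.14 (adjusted p = 0.0182). Sptb, at 14.26 and 14.11 against 14.52 and 14.44, did not pass (0.30 ± 0.13, limma adjusted p = 0.085), although its arrays did not overlap. The Dmtn call was lost without D1-Control replicate 2, D2-Control replicate 1 or D2-Control replicate 2 (limma adjusted p = 0.0622 to 0.136).

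Add2 went the other way. It read 12.80 and 12.81 in D1-Control and 12.21 and 12.22 in D2-Control, and fell by 0.59 ± 0.19 (limma adjusted p = 0.0275). The IL-6 cultures gave the same order from other arrays, with 12.82 and 12.66 at D1 and 11.95 and 12.32 at D2, a fall by 0.61 ± 0.19 (adjusted p = 0.0302). Add2 was lost as a call in control cultures without any 1 of the 4 arrays (adjusted p = 0.0737 to 0.113) and under quantile normalization (adjusted p = 0.128), but stayed negative in each. In vivo, Add2 had its highest mean at stage IV in both genotypes, like the other members.

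In IL-6 cultures 7 of 7 members changed from D1 to D2, 6 upwards and Add2 downwards, where 33.2% of all named probe sets passed (13.0% upwards and 20.2% downwards). The rises were 1.52 ± 0.15 (Tmod1, limma adjusted p = 1.88e-05), 1.28 ± 0.09 (Epb42, adjusted p = 2.05e-06), 0.84 ± 0.06 (Slc4a1, adjusted p = 3.56e-06), 0.75 ± 0.09 (Ank1, adjusted p = 7.92e-05), 0.65 ± 0.13 (Sptb, adjusted p = 0.00263) and 0.53 ± 0.14 (Dmtn, adjusted p = 0.0123). The Dmtn call was lost without D1-IL6 replicate 2 or D2-IL6 replicate 2 (limma adjusted p = 0.0979 and 0.0754), and that of Add2 without D1-IL6 replicate 1, D1-IL6 replicate 2 or D2-IL6 replicate 1 (adjusted p = 0.0802 to 0.181). The arrays of D1-IL6 and D2-IL6 did not overlap for any member, nor for 68.6% of all named probe sets in either direction. With all 20 arrays in 1 fit, 2 of 7 members passed in control cultures and 2 of 7 in IL-6 cultures.

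**Figure D3:**
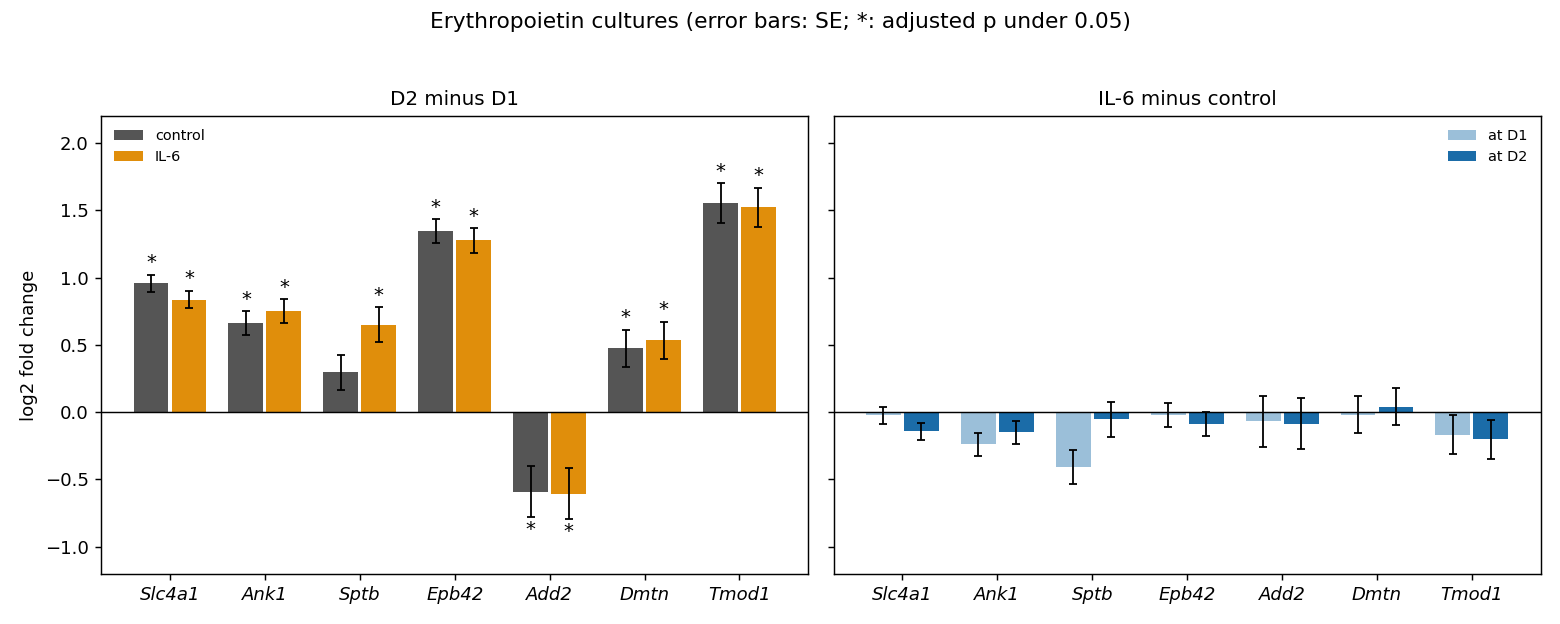
Log2 fold change in the cultures for D2 against D1 (left, without and with IL-6) and for IL-6 against control (right, at D1 and D2); error bars are the SE from limma and an asterisk marks an adjusted p under 0.05. In the left panel Add2 alone is below 0 (-0.59 and -0.61), and in the right panel no bar has an asterisk.

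IL-6 itself moved no member past the threshold. At D1 the differences ran from -0.02 (Slc4a1, Epb42 and Dmtn) to -0.41 (Sptb), with 0 of 7 passing, where 0.0511% of all named probe sets passed in either direction and 554 had an unadjusted p under 0.05 in limma. Sptb read 14.26 and 14.11 without IL-6 and 13.80 and 13.75 with it, a difference of -0.41 ± 0.13 (95% interval -0.69 to -0.12, unadjusted p = 0.00927, limma adjusted p = 1). Ank1 read 15.67 and 15.54 without IL-6 and 15.38 and 15.34 with it, a difference of -0.24 ± 0.09 (95% interval -0.43 to -0.04, unadjusted p = 0.0209, limma adjusted p = 1). For these 2 of 7 members every IL-6 array lay below every control array. This was also so for 16.8% of all named probe sets, so the pattern is common. For the other 5 the IL-6 and control arrays overlapped, and the 95% interval of Slc4a1 was -0.16 to 0.12 and that of Add2 -0.49 to 0.35.

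At D2 the IL-6 differences ran from -0.20 (Tmod1) to 0.04 (Dmtn), with 0 of 7 passing, where 3.31% of all named probe sets passed in either direction (2808 at an unadjusted p under 0.05 in limma). In the same comparison 6 of 11 monocyte and macrophage markers rose and 1 fell, and 4 of 8 granulocyte progenitor and 5 of 13 neutrophil markers rose. The part of such cells in the member values was not tested. Slc4a1 read 17.98 and 17.96 without IL-6 and 17.88 and 17.77 with it (-0.14 ± 0.06, 95% interval -0.28 to -0.0021, limma adjusted p = 0.339). Tmod1 read 16.38 and 16.29 against 16.17 and 16.11 (-0.20 ± 0.15, limma adjusted p = 0.597). Ank1 read 16.20 and 16.33 without IL-6 and 16.08 and 16.15 with it. For Slc4a1, Tmod1 and Ank1 every IL-6 array lay below every control array, and for the other members the arrays overlapped. At D1 that pattern held for 16.8% of all named probe sets. The Sptb difference seen at D1 was -0.05 ± 0.13 at D2, and its change between D1 and D2 did not pass (0.35 ± 0.18, limma adjusted p = 0.699). In that interaction 0 of 7 members passed, where 1.19% of all named probe sets did (1567 at an unadjusted p under 0.05).

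Other genes of the skeleton and its anchoring complexes formed a list of their own (15 of 19 had a named probe set). At stage I, 3 of 15 fell in DKO, where 0.388% of all named probe sets passed downwards. These were Kel, a blood group protease linked to Xk, by 6.02 ± 0.73 (limma adjusted p = 0.00713), Rhd, of the Rh complex, by 3.76 ± 0.62 (adjusted p = 0.0302, with a bound of -3.03), and Rhag, the Rh-associated glycoprotein of the ankyrin complex, by 2.97 ± 0.51 (adjusted p = 0.037). Kel read 8.50 and 6.73 in DKO-I against 13.64 and 13.62 in DWT-I, with 1 DKO array near background. The median of this list was -1.36, against -4.32 for the members, -2.84 for the erythroid reference genes, of which 8 of 15 fell, and -0.14 for the neutrophil markers. In the DKO-I arrays, 5 and 4 of 7 members and 11 and 9 of 15 other skeleton genes were above background. Of the erythroid reference genes, 12 and 9 of 15 were. Background thus limits these medians, and they were not tested against each other. At stage II+III no other skeleton gene passed (0 of 15, median -1.10), 1 of 15 erythroid reference genes fell (median -1.58) and 2 of 13 neutrophil markers rose (median 3.22). There 0.399% of all named probe sets passed downwards, and 35.5% of all calls were upwards. At stage IV the medians were -0.05, -0.05 and 3.44, with no call in any of these 3 lists.

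Markers of other cell types also differed between the genotypes. At stage I the eosinophil markers (5 of 7 had a named probe set) had means of 12.75 and 12.70 in DWT and 10.50 and 6.75 in DKO. All 5 were lower in DKO (median -4.09), and 1 of 5, Il5ra, passed (fell by 3.94, limma adjusted p = 0.0245). Both DKO-I arrays of Il5ra lay near background, which gives a bound of -2.22. In the T and NK cell list the means were 7.97 and 8.45 in DWT and 9.85 and 9.56 in DKO, and 2 of 9 rose, Cd3g by 4.79 and Il7r by 4.18. Over all named probe sets 0.388% passed downwards at this stage, and 12.6% of all calls were upwards. Ppbp, 1 of 6 megakaryocyte and platelet markers, fell by 3.12 (with a bound of -1.57 from background), and Fcna, 1 of 11 monocyte and macrophage markers, by 2.78. No marker passed among granulocyte progenitor (0 of 8, median -1.83), mast cell and basophil (0 of 7, median -1.42), stem and progenitor (0 of 8, median -1.26) or B cell genes (0 of 7, median 0.18), although single values were as low as -5.67 in the mast cell and basophil list and -5.18 in the stem and progenitor list. Granulocyte progenitor means were 13.74 and 9.92 in DKO-I against 13.71 and 13.31 in DWT-I. The lower DKO-I value came from the array that stood apart. The reference genes for RNA amount had means of 15.81 and 15.63 in DWT and 15.81 and 14.08 in DKO. At stage II+III the mast cell and basophil (-2.55), eosinophil (-1.41) and stem and progenitor (-1.26) medians were negative with no call, and Fcna passed again, at -5.36. The 2 DKO arrays differed there. Eosinophil means were 12.21 and 8.60 in DKO against 11.55 and 11.84 in DWT, so DKO replicate 1 was not lower. Stem and progenitor means were 9.64 and 7.35 against 9.75 and 10.01. The part of these cells in the member results was not tested.

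Along the stages, Rhag, Rhd and Kel also rose in DKO from stage I to II+III, by 3.06, 3.71 and 5.47, where 0.240% of all named probe sets passed upwards. From II+III to IV, 8 of 15 rose in DKO, by 4.39 (Gypc, glycophorin C, the membrane anchor of the junction), 3.94 (Rhd), 3.35 (Kel), 3.33 (Icam4), 2.60 (Rhag), 2.59 (Xk), 2.37 (Tpm1, a tropomyosin along the short filaments) and 1.93 (Mpp1, a partner of Gypc at the junction). Over all named probe sets 4.11% passed upwards in this step. In DWT the matching step had Xk up by 1.88 and the capping protein gene Capzb down, by 2.25, which fell from 14.50 and 15.34 to 12.90 and 12.44. Add2, the 1 member that passed in that step, went the other way.

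In control cultures 7 of 15 other skeleton genes were higher at D2 than at D1 and 3 of 15 lower, where 19.7% of all named probe sets passed upwards and 23.5% downwards, so the lower ones were no more common than over all genes. Tpm1 read 12.79 and 12.86 at D1 and 16.50 and 16.44 at D2, a rise of 3.65 ± 0.15 (12.5-fold, limma adjusted p = 4.97e-08). Mpp1 rose by 3.38 ± 0.31 (10.4-fold), Tmod3 by 1.31, Gypc by 1.02 and Cd47 by 0.52. Add3, the γ-adducin gene, fell by 1.97 ± 0.31 (limma adjusted p = 0.000506) beside Add2, Tpm3 fell by 1.88 and Actb by 0.77. With IL-6 the same comparison had 7 of 15 higher and 3 of 15 lower (13.0% and 20.2% of all named probe sets), with Tpm1 up by 3.47, Mpp1 by 3.12, Rhd by 0.67, Tmod3 by 0.65, Cd47 by 0.57, Rhag by 0.54 and Stom by 0.49, while Tpm3 fell by 1.26. Of the erythroid reference genes 7 of 15 rose and 5 of 15 fell from D1 to D2 in control cultures, and of the neutrophil markers 5 of 13 fell and 0 of 13 rose. Between IL-6 and control at D2, Actb rose by 0.28 and Kel fell by 0.42, and at D1 0 of 15 passed.

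Relatives of the members that are known mainly from other tissues (14 of 15 with a named probe set) were described beside them. At stage I 0 of 14 passed between genotypes, with a median of 0.18. At stage II+III 1 of 14 did: Epb41l3, which read 4.71 and 4.84 in DKO against 7.84 and 6.62 in DWT, with 1 of these 4 arrays (DWT-II+III replicate 1) above background. No relative passed at stage IV or in a stage comparison of either genotype. Several lay near background in most arrays, but Slc4a2 and Sptbn1, and from the list before it Add3 and Tmod3, were above background in every in vivo array. Sptbn1, the non-erythroid β-spectrin, read 12.61 and 12.22 in DWT-I, 11.66 and 11.97 in DWT-II+III, and 9.67 and 9.36 in DWT-IV, the reverse of the order of Sptb. Add3 read 13.24 and 13.09, then 11.17 and 12.53, then 10.23 and 10.81, the reverse of the order of Add2. Tmod3 read 12.03 and 12.10, then 10.83 and 11.77, then 10.36 and 10.26. None of these stage differences passed in limma. From D1 to D2 in control cultures 5 of 14 relatives rose and 3 of 14 fell, where 19.7% of all named probe sets passed upwards and 23.5% downwards. Of the 14, only 3 were above background in each D1-Control array and 2 in each D2-Control array, so these calls include dim probe sets. Slc4a2 rose by 0.96 ± 0.26 (limma adjusted p = 0.0134) and Sptbn1 fell by 2.27 ± 0.60 (adjusted p = 0.0117, with 1 D2 array near background). Epb41l4a (1.34), Epb41l5 (-1.78) and Sptan1 (-1.2) also passed, but were near background in all 4 arrays. In IL-6 cultures 1 of 14 passed (33.2% of all named probe sets), Epb41l5 (-1.96), again near background.

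**Figure D4:**
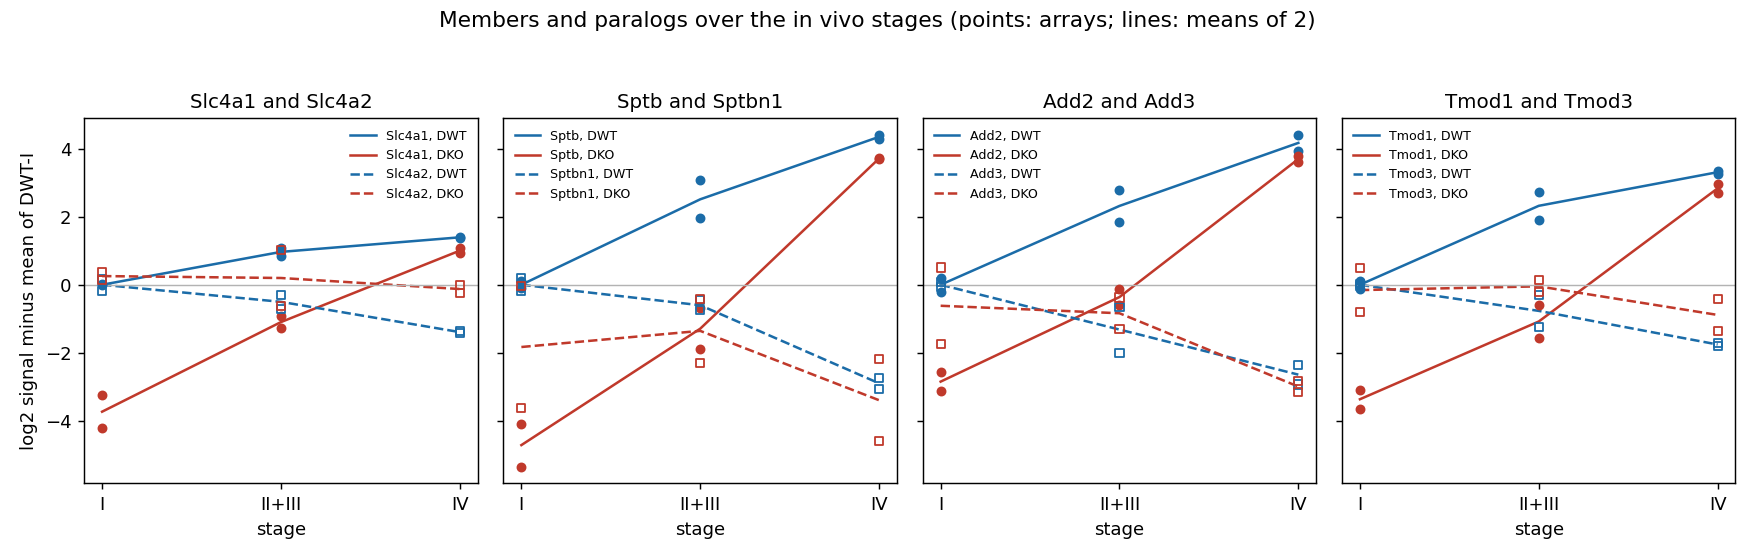
Log2 signal minus the mean of DWT-I (vertical axis) over the in vivo stages for 4 members (filled points, solid lines) and a relative of each (open squares, dashed lines), in DWT and DKO; points are arrays and lines join the means of 2 arrays. The mean of each member is higher at stage IV than at stage I in both genotypes, and in DWT the mean of each relative is lower at stage IV than at stage I.

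As a description, with no test, Pearson correlations between the members over the 20 arrays ran from 0.885 (Epb42 and Add2) to 0.988 (Sptb and Dmtn). The arrays share stage, genotype and the amount of erythroid RNA, and most of each correlation lies between groups. Over the 8 cultured arrays Add2 was negatively correlated with each other member, from -0.68 (Sptb) to -0.94 (Epb42). Among 9717 genes above background in at least 2 arrays, those closest to the mean of the 7 members were Slc6a9, a glycine transporter (0.995), Rnf123 (0.993), Sox6, a transcription factor of red cell maturation (0.990), Rhd (0.986) and Ermap (0.983). The closest gene to each member was Fam117a for Slc4a1 (0.978), Slc43a1 for Epb42 (0.990), Sox6 for Ank1 (0.987) and Dmtn (0.993), Rnf123 for Sptb (0.996), Slc38a5 for Add2 (0.987) and Hectd4 for Tmod1 (0.993).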

How the data were processed

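Labelled RNA of 20 samples was hybridised to Clariom S arrays; per the labels' protocols, small amounts of total RNA were amplified with a Pico kit. The authors deposited log2 signals, made per the submitters' processing notes by RMA with the Affymetrix Expression Console software, whose version is not given in the sources used here; whether all 20 arrays were normalized together was not stated. No further transformation was applied. Genes were named through the platform annotation: 19572 probe sets carried 1 symbol (19505 genes), and 2634 transcript probe sets without a symbol were not used here.

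Groups followed the labels. limma 3.58.1 in R 4.3.3 (lmFit, eBayes with an intensity trend) was fitted to the 8 cultured and the 12 in vivo arrays separately, with 2-sided tests and Benjamini-Hochberg adjustment over all named probe sets in each of 14 comparisons, at a threshold of 0.05. A signal was near background under the 95th percentile of the array's 23 background probe sets (7.25 to 7.74). Where both arrays of 1 group were near background, the fold change is also given from that level, as a bound. Array values carry no count depth, and the number of arrays limits the precision. The scripts were tested on simulated data.

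The text names all members, Diaph1, every other skeleton gene (at most 8 in a comparison) and relative (at most 5) that passed, and the genes most correlated with the members; the 4 relatives and Capzb described by array were chosen after their values were seen. The members and lists were chosen with earlier results of these data known. The sex label tells the 2 DWT mice apart, so a term for the male mouse was added to the fit as the replicate block. The DKO mice were all female, so this term blocks no DKO array, and DKO is then compared with the female DWT level. Deviations of the same DWT mouse correlated at 0.02 to 0.12 between stages. The alternatives were quantile normalization, median centring, no intensity trend, a filter on dim probe sets, all 20 or only 4 arrays in a fit, the block, and leaving out each array. Promoter windows came from RefSeq (GRCm38.p6).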

Additional observations from a re-analysis of the deposited data

How the results depend on the processing

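The count of members that passed depended on the arrays in the fit. With all 20 arrays in 1 fit, it was 2 for D2 against D1 in control cultures, 2 in IL-6 cultures, 4 for stage II+III against I in DWT, 3 for stage IV against II+III in DWT, 7 for stage II+III against I in DKO and 1 for the change of the genotype difference from II+III to IV. With only the 4 arrays compared, it was 0 for DKO against DWT at stage I, 1 at stage II+III, 7 and 4 for the first and second step in DWT, and 0 for the first step in DKO. With the replicate block, it was 3 at stage I, 0 at stage II+III and 2 for the first step in DKO; the block changed no other count of members by over 1.5 times. For the first step in DWT, 1 member passed after quantile normalization, 1 without an intensity trend and 2 after the filter on dim probe sets; for the second, 0 passed after quantile normalization. The filter gave 7 for the first step in DKO. Leaving out 1 array gave 0 to 7 for DKO against DWT at stage I, 0 to 4 at stage II+III, 0 to 0 for the second step in DWT, 0 to 7 and 4 to 7 for the steps in DKO, and 0 to 3 for the change of the genotype difference from I to II+III. Over all named probe sets the alternatives gave 0 to 6066 calls for DKO against DWT at stage I (87 in the reported fit), 5 to 547 at stage II+III (121) and 0 to 124 at stage IV (9). For the first and second step they gave 4 to 911 and 0 to 2788 calls in DWT, and 0 to 4560 and 157 to 2904 in DKO. For the change of the genotype difference they gave 0 to 2700 from I to II+III and 0 to 5 from II+III to IV. For D2 against D1 they gave 5735 to 8463 in control and 4291 to 6493 in IL-6 cultures. Quantile normalization moved the median over all named probe sets from 0.17 to 0.03 for D2 against D1 in control cultures, the share of upward calls from 44.4% to 20% for DKO against DWT at stage IV and from 30.8% to 43.9% for the second step in DWT.

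Of the log2 fold changes of members recomputed under these alternatives, 34 changed sign, and none of these had passed; the cause was not tested. Without 1 array, the IL-6 difference at D1 ran from -0.092 to 0.049 (Slc4a1), -0.11 to 0.070 (Epb42), -0.15 to 0.015 (Add2), -0.13 to 0.090 (Dmtn) and -0.41 to 0.074 (Tmod1), and at D2 from -0.15 to 0.043 (Sptb), -0.27 to 0.10 (Add2) and -0.13 to 0.21 (Dmtn). Its change from D1 to D2 ran from -0.16 to 0.022 (Epb42), -0.20 to 0.17 (Add2), -0.11 to 0.23 (Dmtn) and -0.27 to 0.21 (Tmod1). It was 0.0018 (Tmod1) after quantile normalization, and 0.018 (Add2) and 0.0009 (Tmod1) after median centring. The Dmtn difference at stage IV was 0.076 with the replicate block and ran from -0.18 to 0.053 without 1 array. The change of the genotype difference from I to II+III ran from -0.31 to 0.64 (Add2) and -0.51 to 0.44 (Tmod1) without 1 array; it was -0.28 (Add2) after quantile normalization and 0.076 (Tmod1) after median centring.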
